A study of Homo sapiens with 24 samples.

Results

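RAB proteins are the largest family of small GTPases that direct vesicle traffic, and their genes were examined here for nearby super-enhancers in a germinal center B-cell lymphoma line. Members were the protein-coding genes of GENCODE version 44 on chromosomes 1 to 22 whose symbol is RAB followed by a number and optional letters, which gave 57 of 19111 genes. RAB3IP and RAB5IF, whose symbols also fit that pattern but name RAB partners, were not counted. A gene was linked to a super-enhancer when the region overlapped its gene body extended by 50 kb on each side. The data came from OCI-Ly7, a human diffuse large B-cell lymphoma (DLBCL) line of the germinal center B-cell (GCB) type, in which H3K27ac, H3K4me1 and H3K4me3 were profiled by CUT&RUN, an assay that releases antibody-bound chromatin with a nuclease. The 24 samples fell into 12 groups of 2 replicates, 3 marks by 4 genotypes, namely WT, a CREBBP point mutant, a KMT2D knockout and the double mutant. The values used here came from the WT genotype alone, which consists of control clones that carried no CRISPR edit, with no treatment beyond the H3K27ac antibody. The deposited table gave 1 signal per super-enhancer from the 2 H3K27ac WT libraries combined, so the values carry no replicate error, no difference was tested, and the other 22 samples were not analysed here.

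RAB proteins cycle between a GTP-bound form on membranes and a GDP-bound form in the cytosol. Exchange factors switch them on, GTPase-activating proteins switch them off, and effectors such as tethers and motor adaptors bind the active form. Each RAB marks particular membranes, and B cells rely on this traffic to take up antigen, load and recycle surface receptors and secrete proteins.

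A super-enhancer is a cluster of H3K27ac peaks ranked high by the ROSE algorithm, which stitches neighbouring peaks into 1 region. The signal covers the whole stitched region, gaps between peaks included, so it depends on length as well as on density. The table held 2615 regions, ranked from 1 for the highest signal, and each lay above the header's cutoff of 10617. Their unit was not stated, so signals are given as such and as multiples of the cutoff. Peaks within 2500 bp of a transcription start site (TSS) were left out by the authors before stitching. As a check of the cell type, 8 of 10 B-cell marker genes had a region within 50 kb (PAX5 rank 216, EBF1 rank 162 and CD79A rank 159 among them), against 2 of 7 T-cell markers (LCK and CD247) and 1 of 6 myeloid markers (CSF1R).

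Of the 57 RAB genes, 26 had at least 1 super-enhancer within 50 kb and 31 had none. That share, 45.6%, stood beside 31.8% of all protein-coding genes and 33.0% of genes of like length, taken as the mean over the 100 other genes nearest in length to each RAB gene. The share of RAB genes was 12.6 percentage points higher than that of genes of like length, where 18.8 RAB genes with a region would have given an equal share. With the top 1307 regions by signal alone, this difference was 5.84 percentage points. In 17 RAB genes (29.8%) a region overlapped the gene body itself, beside 17.9% of all genes. In 9 RAB genes (15.8%) the TSS of the MANE Select transcript, the agreed reference transcript, lay inside a region, beside 8.06% of all genes. For 14 RAB genes (24.6%) their TSS was the nearest one to at least 1 region, ties included, beside 14.1% of all genes. All 4 ways of linking gave a higher share for RAB genes than for all genes. They draw on the same genes and regions, so they are not independent of each other. The shares for a TSS inside a region and for the nearest TSS were set beside all genes only. The 95% exact binomial interval over genes of the 45.6% share, 32.4 to 59.3%, includes the 33.0% of genes of like length. The links rest on distance, and neither expression nor contacts of these genes were measured here.

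**Figure D1:**
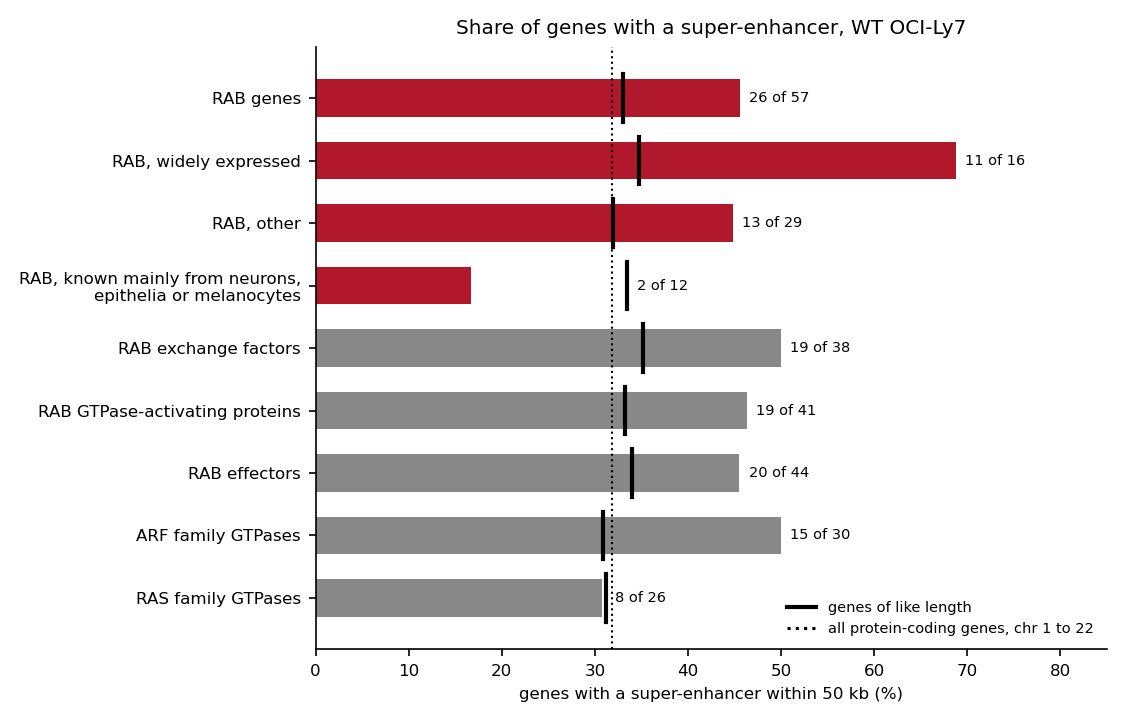
Share of genes with a super-enhancer within 50 kb (%, bars starting at 0) for RAB genes in red, all and by expression class, and for lists of RAB regulators, effectors and other small GTPases in gray, with counts beside the bars. The thick black ticks give the share among genes of like length and the dotted line the share among all protein-coding genes on chromosomes 1 to 22 (31.8%). The bar for RAB genes described as widely expressed reaches 68.8% and the bar for those known mainly from neurons, epithelia or melanocytes 16.7%. The classes were written by hand, and these shares depend on that placement.

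The 26 genes were linked to 34 regions, each linked to 1 RAB gene only, or 1.30% of the table. Of these genes, 20 had 1 region, RAB1A, RAB1B, RAB35 and RAB43 had 2, and RAB7A and RAB11A had 3. By position, 9 regions spanned the TSS of the RAB gene, 3 lay inside the gene, 7 overlapped it without its TSS, 7 lay upstream and 8 downstream. Constituent peaks filled from 7.74% to 17.0% of the bases of a region and stitched gaps the rest. A gene or TSS covered by a region therefore need not carry a peak. The RAB gene had the nearest TSS, alone or tied, in 14 of the 34 pairs. At RAB1A, RAB8A, RAB1B, RAB5C, RAB6A and RAB7B it was tied with another gene whose TSS lay inside the same region. The TSS of another gene lay closer in the other 20 pairs, and some of those regions overlapped the RAB gene itself.

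The regions near RAB genes resembled the rest of the table in signal and size. Their median signal was 17457, somewhat below the 19736 over all regions, and 15 of 34 (44.1%) were in the top 1307 of the table. Median length was 60.2 kb against 60.7 kb, and the median number of constituent peaks was 16 in both. The median signal per bp was 0.368 against 0.343. Taking the highest-ranked region of each gene, the median rank was 1166 for the 26 RAB genes and 1181 for the other genes with a region. RAB1A, RAB40B, RAB13 and RAB34 reached the top 262 of the 2615 regions, which held 5 of the 34 linked regions (14.7%).

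**Figure D2:**
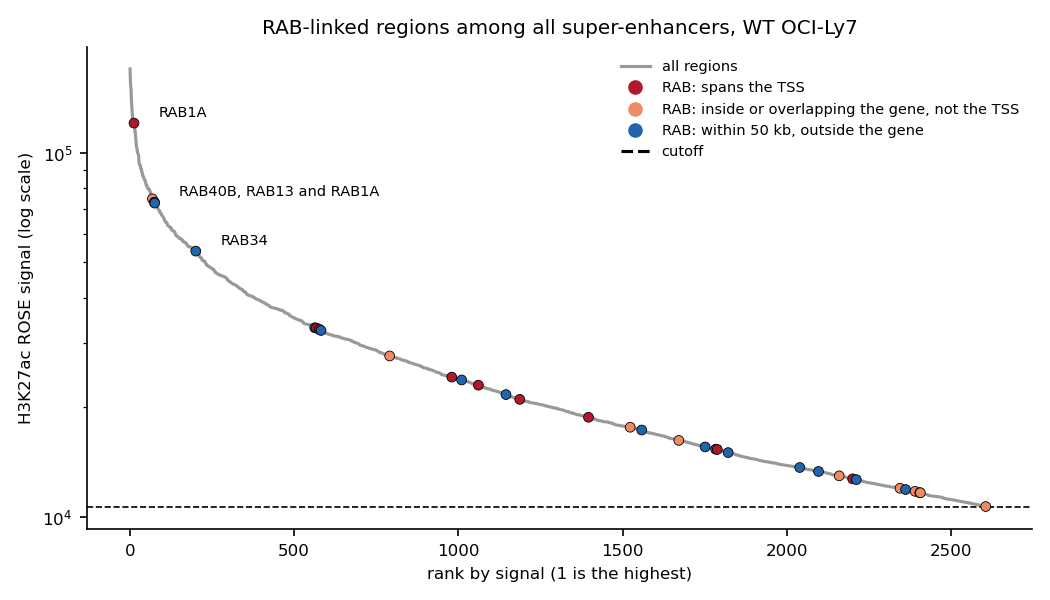
H3K27ac signal (log scale) against rank for all 2615 super-enhancers (gray line), with the 34 regions linked to RAB genes as points coloured by their position relative to the gene, and the cutoff of 10617 as a dashed line. The points run along the whole curve, from rank 13 at RAB1A to rank 2605 at RAB11A, and 5 lie in the top 262.

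At several RAB genes the region covered the promoter. The stretches upstream of the MANE Select TSS are shown for RAB8A, RAB11A and RAB40C, whose TSS lay inside a region and which held GC boxes, and for RAB7B, whose TSS also lay inside a region but which was poor in CpG and held no GC box. Sequences are from RefSeq promoters of GRCh38.p14, written 5′ to 3′ on the strand of the gene, and hold none of its annotated exons. Capitals mark CCAAT boxes, GC boxes with the letters GGGCGG, and ETS sites with the letters CCGGAAG, on either strand, as matches to these letters and not as shown binding sites. In RAB11A a GC box and an ETS site adjoin in 1 run of capitals.
RAB8A, chr19:16111639-16111888, plus strand: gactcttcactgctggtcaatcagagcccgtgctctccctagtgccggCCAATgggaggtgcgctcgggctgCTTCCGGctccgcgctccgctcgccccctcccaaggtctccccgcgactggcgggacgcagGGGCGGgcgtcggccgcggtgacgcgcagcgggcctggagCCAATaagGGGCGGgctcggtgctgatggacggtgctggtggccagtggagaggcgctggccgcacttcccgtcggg
RAB11A, chr15:65869241-65869455, plus strand: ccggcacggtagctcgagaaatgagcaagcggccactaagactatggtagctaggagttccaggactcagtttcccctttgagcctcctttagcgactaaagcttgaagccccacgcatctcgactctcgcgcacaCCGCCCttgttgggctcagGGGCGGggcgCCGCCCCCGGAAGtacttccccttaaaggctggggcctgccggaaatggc
RAB40C, chr16:589816-590065, plus strand: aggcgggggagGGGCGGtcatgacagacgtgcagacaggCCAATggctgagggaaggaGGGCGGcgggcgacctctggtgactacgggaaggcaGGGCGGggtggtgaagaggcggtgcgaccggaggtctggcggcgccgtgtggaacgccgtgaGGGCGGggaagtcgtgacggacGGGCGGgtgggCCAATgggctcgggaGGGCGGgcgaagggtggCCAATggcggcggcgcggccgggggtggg
RAB7B, chr1:206003462-206003645, minus strand: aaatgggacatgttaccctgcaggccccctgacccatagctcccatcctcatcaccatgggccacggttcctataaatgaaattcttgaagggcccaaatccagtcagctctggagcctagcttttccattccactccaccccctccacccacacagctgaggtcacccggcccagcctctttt

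The 250 bases before the TSS held 28 CpG in RAB8A, 18 in RAB11A and 29 in RAB40C, against 4 in RAB7B, whose GC content was 55.6%, and a median of 19 over matched protein-coding promoters. RAB7B therefore stood apart from the other promoters shown here, although its region spanned the TSS in the same way. Of the 7 matched RAB promoters with the TSS inside a region, 5 held a GC box. RAB6A, not shown, was the other one without, and it held 32 CpG at a GC content of 71.6%. Lack of a GC box thus did not go with few CpG in RAB6A. Promoter sequences were matched for 45 of the 57 RAB genes, 23 of them with a region, and RAB1A and RAB12 were among those without a match. Median GC content was 68.4% in RAB promoters with a region and 63.2% in those without, and over all protein-coding genes it was 66.8% with and 62.0% without. The difference between RAB promoters thus had the direction seen in all genes. A GC box was found in 36 of 45 RAB promoters (80.0%), beside 60.8% of matched protein-coding promoters and 42.6% of the 35116 promoters in the table. The other motifs are given for RAB promoters, matched protein-coding promoters and the whole table in this order. A CCAAT box was found in 24.4%, 34.9% and 32.0%, and an ETS site in 13.3%, 12.9% and 8.52%. The E-box CACGTG was found in 11.1%, 7.92% and 6.34%. The cyclic AMP response element TGACGTCA was found in 2.22%, 2.60% and 1.65%, which is 1 RAB promoter. The octamer ATGCAAAT was found in 0 RAB promoters, 1.61% and 1.63%. Both strands were searched, and motifs of different kinds can share end bases.

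Among the RAB genes of the endoplasmic reticulum (ER) and Golgi, 6 of 15 had a region (40.0%, against 31.9% of genes of like length). RAB1A, which tethers ER-derived vesicles to the Golgi, had the highest signal of all RAB genes. Its region lay at chromosome 2, 64994989 to 65136531 (hg38), ranked 13 with a signal of 120764, which was 11.4 times the cutoff, and held 37 constituents over 142 kb. It covered 100% of the RAB1A gene, and 42.1% of the region lay in that gene. Counting introns and exons of all protein-coding genes, 58.2% of the region's bases were intronic and 14.4% exonic. The TSS of CEP68, a centrosome gene, also lay inside it, and it reached into the amino acid transporter gene SLC1A4. A second region, at chromosome 2, 65156032 to 65354383, began 25.7 kb upstream of RAB1A and ranked 76 with a signal of 72775 over 198 kb. It lay over ACTR2 and SPRED2, so RAB1A was flanked upstream by another high-ranked region and covered by its own.

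RAB1B, the paralogue of RAB1A in the same step, also had a region over its TSS, of far lower signal, which covered 52.4% of the gene. The region at chromosome 11, 66219434 to 66273251 ranked 980 with a signal of 24185 (2.28 times the cutoff, 16 constituents, 53.8 kb) and spanned the TSS of RAB1B and of KLC2, a kinesin light chain gene. A second one, rank 2211 with a signal of 12640, lay 34.6 kb downstream at chromosome 11, 66312080 to 66328849. RAB6A, which acts in traffic within the Golgi and back to the ER, shared a region with the TSS of MRPL48. That region, at chromosome 11, 73725959 to 73808860, ranked 1187 with a signal of 21007 (1.98 times the cutoff, 15 constituents, 82.9 kb) and covered 41.1% of the gene.

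The other Golgi members had regions outside the gene. RAB34 lay 14.3 kb from a region at chromosome 17, 28732719 to 28808683, which ranked 201 with a signal of 53699 (5.06 times the cutoff, 17 constituents, 76.0 kb) and held the TSS of TRAF4, a gene of the TNF receptor adaptor family. RAB30 (rank 1010) lay 43.7 kb from a region over PCF11, close to the limit of 50 kb. RAB43 had a region on each side of it, ranks 1558 and 2096, and the nearer one, 4.93 kb upstream, lay over ISY1 and its read-through transcript with RAB43. RAB2A, RAB18, RAB2B, RAB6B and 5 others of this role had none.

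**Figure D3:**
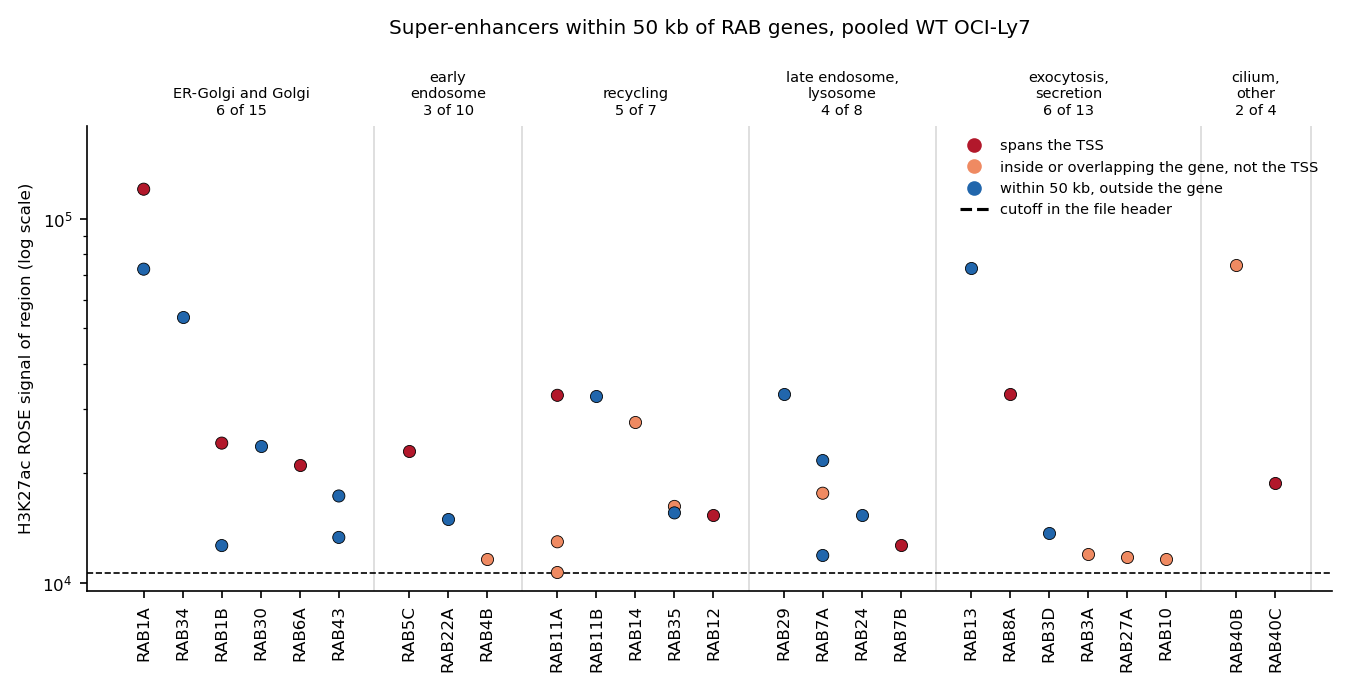
H3K27ac signal (log scale) of every super-enhancer within 50 kb of a RAB gene, 1 point per region from the combined WT libraries, with genes grouped by the membrane they act on and the counts with a region given above each group. Red points span the TSS, orange points overlap the gene without its TSS and blue points lie outside it; RAB1A reaches 120764 while the lowest RAB11A region sits just above the cutoff of 10617 (dashed).

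Early endosomes were the role with the smallest share, 3 of 10 genes (30.0%, against 36.1% at like length). RAB5C, of the RAB5 group that drives early endosome fusion, was covered over 99.7% of its length by a region at chromosome 17, 42125074 to 42174539. This region ranked 1061 with a signal of 22986 (2.17 times the cutoff, 11 constituents, 49.5 kb). Its close relatives had none within 50 kb: the nearest region lay 169 kb from RAB5B and 1185 kb from RAB5A. RAB4B, which acts in fast recycling from early endosomes, had a region over 57.2% of the gene at chromosome 19, 40786225 to 40822967, but it ranked 2404 with a signal of 11640 (1.1 times the cutoff, 8 constituents, 36.7 kb) and held the TSS of EGLN2. RAB22A (rank 1821) lay 24.2 kb from its region.

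Recycling to the plasma membrane had the largest share of the roles, 5 of 7 genes (71.4%, against 34.4% at like length), with RAB15 and RAB25, the latter known from epithelia, as the genes without. RAB11A, a marker of the recycling endosome, had 3 regions. One spanned its TSS at chromosome 15, 65862812 to 66023358 and continued into MEGF11 (rank 577, signal 32735, 3.08 times the cutoff, 30 constituents, 161 kb). The others, at chromosome 15, 65759579 to 65784339 (rank 2159, signal 12947) and 65801278 to 65834235 (rank 2605, signal 10658), lay inside its gene body only in the long GENCODE model of 166 kb. In the RefSeq model the gene spans 22.5 kb, and these regions lay 85.2 kb and 35.3 kb from the MANE Select TSS. The first of them overlapped DENND4A, a RAB exchange factor gene, whose TSS was the nearest to both.

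RAB11B, a paralogue with the same role, lay 26 kb from a region over HNRNPM and PRAM1 at chromosome 19, 8430477 to 8506332 (rank 582, signal 32496, 3.06 times the cutoff, 18 constituents, 75.9 kb). RAB14, between Golgi and endosomes, was overlapped over 24.7% of its length by a region shared with CNTRL at chromosome 9, 121114320 to 121189235 (rank 791, signal 27651, 2.60 times the cutoff, 31 constituents, 74.9 kb). RAB35, which returns cargo from endosomes to the surface, was overlapped over 60.1% of the gene at chromosome 12, 120056421 to 120108574 (rank 1671, signal 16199, 1.53 times the cutoff, 16 constituents, 52.2 kb) and had a second region 48.7 kb upstream over GCN1 (rank 1751, signal 15547). RAB12, which acts in the sorting of the transferrin receptor, was the only gene within 50 kb of its region. That region covered 100% of RAB12 at chromosome 18, 8599517 to 8640629 (rank 1788, signal 15298, 1.44 times the cutoff, 13 constituents, 41.1 kb).

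**Figure D4:**
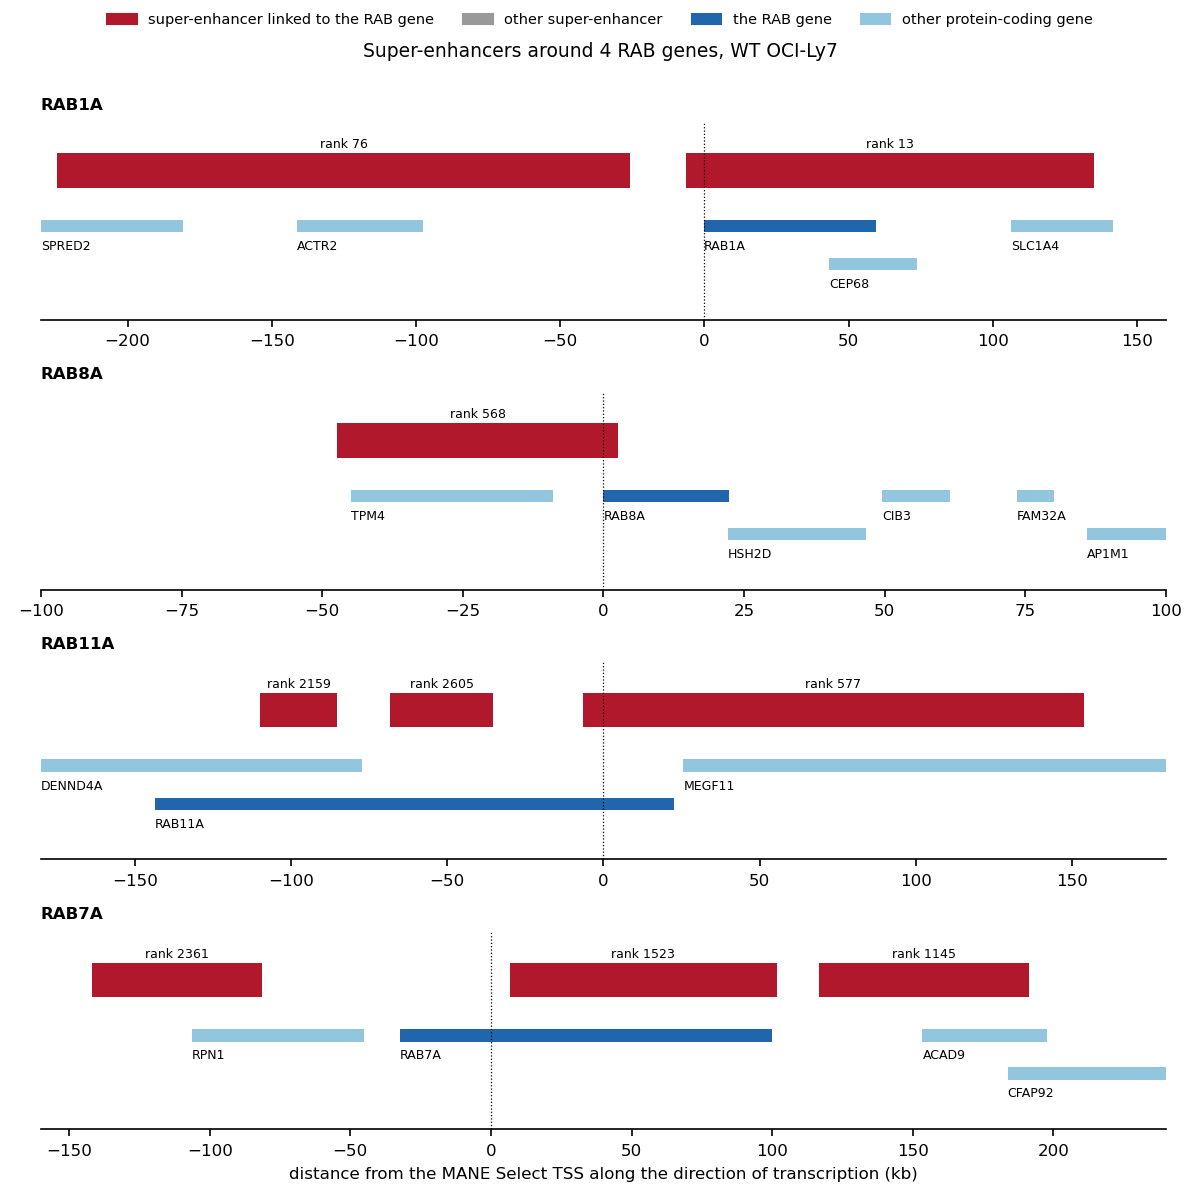
Super-enhancers (upper bars, red where linked to the RAB gene) and protein-coding genes (lower bars, the RAB gene in dark blue) around RAB1A, RAB8A, RAB11A and RAB7A, drawn to scale in kb from the MANE Select TSS (dotted line) along the direction of transcription. The rank 13 region covers RAB1A, the rank 568 region ends just inside RAB8A, and RAB11A and RAB7A each have 3 regions, some of them over neighbouring genes.

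Of the genes of late endosomes, lysosomes and autophagy, 4 of 8 had a region (50%, against 30.8% at like length). RAB7A, which carries late endosomes to the lysosome, had 3. The region inside and just past its gene, at chromosome 3, 128732848 to 128827881, covered 70.4% of the gene and no other (rank 1523, signal 17610, 1.66 times the cutoff, 24 constituents, 95 kb). A stronger one lay 16.8 kb downstream over ACAD9 at chromosome 3, 128842741 to 128917393 (rank 1145, signal 21657), and a weaker one 48.8 kb upstream over RPN1 (rank 2361, signal 11871). That distance holds for the GENCODE model of 132 kb. In the RefSeq model of 88.6 kb the gene starts at the MANE Select TSS, 81.3 kb from the weaker region and beyond the 50 kb limit.

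RAB7B, described in late endosome to Golgi traffic, was covered over 100% of its length by a region at chromosome 1, 205968218 to 206042035 (rank 2200, signal 12704, 1.20 times the cutoff, 15 constituents, 73.8 kb) that also held the TSS of CTSE. RAB29, a partner of the kinase LRRK2, lay 28.7 kb from a region over SLC45A3 and NUCKS1 at chromosome 1, 205647654 to 205739329 (rank 563, signal 33058, 3.11 times the cutoff, 24 constituents, 91.7 kb). RAB24 (rank 1783), linked to autophagy, lay 5 kb from a region over NSD1 and had the nearest TSS to it. The regions of RAB29, RAB8A, RAB11A and RAB11B had signals between 32496 and 33058, and without replicate values their order cannot be resolved.

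In exocytosis and regulated secretion, 6 of 13 genes had a region (46.2%, against 32.3% at like length), of which RAB3D, RAB3A, RAB27A and RAB10 reached at most 1.29 times the cutoff. RAB13, known from tight junctions, was linked to the strongest of them at chromosome 1, 153797428 to 153937335 (rank 75, signal 73227, 6.90 times the cutoff, 53 constituents, 140 kb), but at 44.3 kb it was the member just inside the limit. That region covered GATAD2B and DENND4B, the latter a RAB exchange factor gene. RAB8A, which carries vesicles from the Golgi to the surface and the cilium, had a region over its TSS at chromosome 19, 16064568 to 16114521 (rank 568, signal 32989, 3.11 times the cutoff, 16 constituents, 50 kb). This region also covered the tropomyosin gene TPM4 and ended 2.63 kb inside RAB8A.

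RAB10, which acts in transport to the plasma membrane, had a region wholly inside the gene, with 99.8% of its bases in introns, at chromosome 2, 26040300 to 26100161 (rank 2406, signal 11631, 1.1 times the cutoff, 17 constituents, 59.9 kb). RAB27A, which docks lytic granules and melanosomes, was overlapped over 10.3% of the gene at chromosome 15, 55307134 to 55357139 (rank 2390, signal 11736, 1.11 times the cutoff, 10 constituents, 50 kb), 17.3 kb upstream of its MANE Select TSS and over PIGB and CCPG1. RAB3A, a synaptic vesicle protein, was touched at its 3′ side by a region at chromosome 19, 18179356 to 18198715 (rank 2344, signal 11968, 1.13 times the cutoff, 4 constituents, 19.4 kb), which held the TSS of MPV17L2. RAB3D (rank 2039) lay 11.7 kb from its region. The regions of RAB10 and RAB4B were, as the highest-ranked ones of their genes, no more than 10% above the cutoff.

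Of the 4 members of the cilium and other roles, RAB40B and RAB40C had a region and RAB23 and RAB28 had none. RAB40 proteins carry a SOCS box, with which they join ubiquitin ligases. RAB40B was overlapped over 86.1% of the gene at chromosome 17, 82578295 to 82692600 by a region that ended 6.10 kb from its TSS (rank 69, signal 74790, 7.04 times the cutoff, 32 constituents, 114 kb) and also covered FOXK2 and WDR45B. RAB40C was overlapped over 91.9% of the gene, TSS included, at chromosome 16, 579473 to 626043 (rank 1396, signal 18758, 1.77 times the cutoff, 10 constituents, 46.6 kb).

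RAB genes were also divided by where they are known to be expressed, from textbook knowledge and not from these cells. The classes were written by hand with earlier results of these data known, so their shares are a description and not a test. Of the 16 described as widely expressed, 11 had a region (68.8%, against 34.8% at like length), and in 6 the TSS lay inside it. The widely expressed genes without one were RAB2A, RAB5A, RAB5B, RAB18 and RAB21. Of 12 known mainly from neurons, epithelia or melanocytes, RAB3A and RAB40B had a region (16.7%, against 33.5%), and the TSS lay inside one in 0 of the 12. The remaining 29 were in between with 13 (44.8%, against 31.9%). RAB13, known from tight junctions, and RAB27A, which docks melanosomes, were counted among these 29, and each had a region. The shares of the classes therefore depend on where such genes were placed. The number of other protein-coding TSS within 500 kb had a median of 11.5 for the widely expressed genes and 10 for the second class, and gene length a median of 42.0 kb and 39.4 kb.

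**Figure D5:**
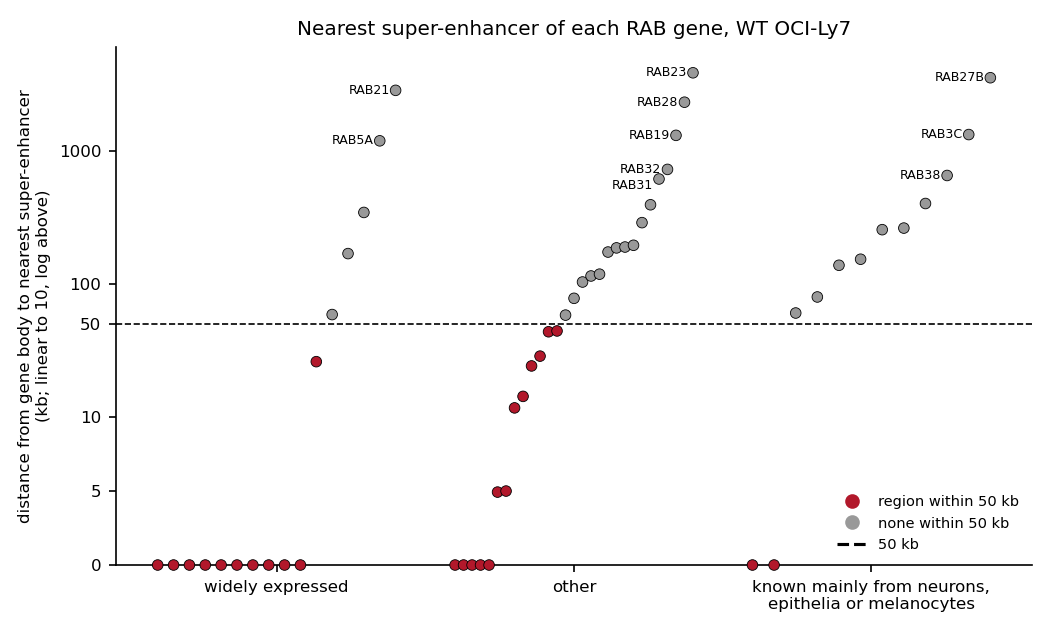
Distance in kb from each of the 57 RAB gene bodies to the nearest super-enhancer (linear to 10 kb, log above), by expression class, with red points for genes with a region within 50 kb (dashed line) and gray points for those without. Of the 16 widely expressed genes 10 lie at 0 kb, whereas 10 of the 12 genes known mainly from neurons, epithelia or melanocytes lie above the line. The classes were written by hand.

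The 31 RAB genes without a region lay between 58.2 and 3842 kb from the nearest one, with a median of 255 kb. Of these, 5 lay within 100 kb and 10 farther than 500 kb. Just outside the limit were RAB42 at 58.2 kb, RAB2A at 58.8 kb and RAB17 at 60.4 kb, and just inside it RAB13 at 44.3 kb and RAB30 at 43.7 kb. RAB23 (3842 kb), RAB27B (3527 kb) and RAB21 (2836 kb) were the farthest. RAB genes with a region lay among more genes, with a median of 18.5 other TSS within 500 kb against 7 without, and 12 over all genes. When genes of like length were also chosen for a like number of neighbours, the RAB share was 12.7 percentage points higher, close to the value for length alone. Median gene length was 30.0 kb with and 35.3 kb without.

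Close paralogues were compared next. Over the 57 encoded proteins, which had a median of 216 residues and ended with a cysteine among the last 5 in 55 cases, 20 pairs shared at least 75% of residues. In 4 of these pairs both genes had a region, in 10 just 1 had, and in 6 neither. The pairs with a region at just 1 gene made up 50%, close to the 50.5% over all 1596 pairs of RAB genes, and several pairs share a gene. RAB1A and RAB1B (93.5% identity) and RAB11A and RAB11B (92.1%) were pairs with a region at both genes. RAB6A and RAB6B, at 90.9%, were the most alike pair that differed, and RAB6B, known from neurons, lay 255 kb from the nearest region. RAB5C differed from RAB5A (87.4%) and RAB5B (84.7%), RAB4B from RAB4A (87.3%), and RAB8A from RAB8B (82.6%), which lay 195 kb from the nearest region. RAB2A and RAB2B (85.8%) had none at either gene.

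The exchange factors, GTPase-activating proteins and effectors of RAB proteins had shares close to that of the RAB genes. Of RAB exchange factors, 19 of 38 had a region (50%, against 35.2% at like length), led by DENND3 (rank 27), DENND4B (rank 75) and SBF2 (rank 145). Of RAB GTPase-activating proteins, 19 of 41 had one (46.3%, against 33.2%), led by TBC1D22A (rank 18), TBC1D2B (rank 65) and SGSM3 (rank 125). Of RAB effectors, 20 of 44 had one (45.5%, against 34%), led by MICAL3 (rank 94), BICD1 (rank 95) and RAB11FIP1 (rank 258). Among 4 chaperone and prenylation genes, which carry RAB proteins through the cytosol and attach their lipid, GDI2 (rank 285) had a region. RAB13 and DENND4B, RAB11A and DENND4A, and RAB1B and RIN1 were RAB genes and exchange factors within 50 kb of the same region.

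Other small GTPase families were set beside the RAB genes. Of ARF genes, which recruit vesicle coats, 15 of 30 had a region (50%, against 30.8% of genes of like length), among them ARF6 (rank 59) and ARL3 (rank 948). Of RAS genes, which relay growth signals, 8 of 26 had one (30.8%, against 31.2%), led by DIRAS1 (rank 34), RASD1 (rank 605) and RAP1A (rank 1178). The ARF share was 19.2 percentage points above that of like-length genes and the RAS share was near it. A share above that of like-length genes was therefore not particular to RAB genes.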

How the data were processed

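H3K27ac, H3K4me1 and H3K4me3 were profiled by CUT&RUN in 24 samples of 12 groups. The study's methods state that the authors used nf-core cutandrun 2.0 with an IgG control for every genotype and normalised depth by promoter reads. Peaks came from SEACR, their summits from MACS2, and super-enhancers from ROSE on the WT H3K27ac data. The submitters' processing notes name hg38, DiffBind 3.6.1 and DESeq2, which made none of the values used here. The deposited table gave the authors' ROSE signal per stitched region (stitching distance 12.5 kb), in a unit its header did not state, as 1 combined column for the 2 WT libraries. It also gave region positions, constituent numbers and ranks. It gave no read counts and no value per library, so the depth is unknown and neither an interval on a signal nor a test between samples was possible. Regions below the cutoff were not analysed here.

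Genes and MANE Select TSS came from GENCODE version 44 on hg38, the authors' build. Genes of like length were the 100 protein-coding genes outside the RAB set nearest in length to each gene, with no random draw. All tied TSS counted as nearest. Promoters came from RefSeq, 250 bases upstream. Protein identity was the number of identical aligned residues over the length of the shorter MANE Select translation. The linking code was tested on simulated data and linked or left unlinked 20000 of 20000 genes as planted. Work used Python 3.11.15, numpy 2.4.6, pandas 2.3.3, scipy 1.17.1, matplotlib 3.10.9 and Biopython 1.88.

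The RAB genes, the roles and expression classes and the other gene lists were chosen with earlier results of these data known. By the naming rule, every RAB gene with a region was named with its rank, the 10 highest-ranked and all with a region over the gene body were given in full, and of each other list the 3 highest-ranked genes were named, apart from some items that are not reported here. Other genes at RAB regions, distances and RAB genes without a region beyond the widely expressed ones were named after their values were seen.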

Additional observations from a re-analysis of the deposited data

How the results depend on the processing

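Other windows (0, 25 and 100 kb), the TSS in place of the gene body, the top 1307 regions by signal, RAB3IP and RAB5IF counted, chromosome X counted, other choices of genes of like length and rank by signal per bp were tried. RefSeq gene bounds and leaving out regions within 10% of the cutoff were added after seeing the data. Of 39 recomputed values of 4 results, 5 moved, 0 reversed and 34 stayed within 1.5 times the reported count or rank or, for a share, within its 95% exact binomial interval over genes (32.4 to 59.3%), and, for the difference, within the margin of that interval, which is wide and covers no error of the signal. With the gene body alone, the share of RAB genes with a region was 29.8% and the number of linked regions 19. With the top 1307 regions, the share was 24.6%, the number of linked regions 15 and the median of the best ranks 579.5, since fewer regions entered. The difference to genes of like length stayed positive throughout, from 5.84 percentage points in the top regions, lower than the reported 12.6 by over 1.5 times, to 15.8 around the TSS. The median best rank by signal per bp was 1039.5, and with regions near the cutoff left out 24 genes kept a region (42.1%). Leaving out each replicate was not run, since the table holds both libraries as 1 value. No paired analysis was possible because no library had a value of its own. Without counts, the precision of a signal and the calls near the cutoff cannot be judged.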

Other observations

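RAB genes with a region were spread over 13 chromosomes. On chromosome 19, RAB3A, RAB3D, RAB4B, RAB8A and RAB11B were all of the 5 members there, and each had a region, beside 26.2% of all protein-coding genes on that chromosome. On chromosome 17 it was 3 of 4 members, beside 40.9% of its genes, and on chromosome 11 it was 3 of 5, beside 33.5%. On chromosome 6, RAB23, RAB32 and RAB44 had none, beside 30.8% with one. These counts are small and were not tested.

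Among the 7 RAB genes on chromosome X, which were not counted as members, RAB9A, which returns receptors from late endosomes to the Golgi, had a region within 50 kb (rank 753). RAB9B, RAB33A, RAB39B, RAB40A, RAB40AL and RAB41 had none. Of the partner genes, RAB5IF had a region (rank 618) and RAB3IP, an exchange factor of RAB8, had none.

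By gene length, 14 of the 29 RAB genes up to the median length had a region (48.3%, 18.3 percentage points above genes of like length), as did 12 of the 28 longer ones (42.9%, 6.61 percentage points above). RAB40B was the member of the class known mainly from neurons, epithelia or melanocytes with a region in the top 262, and FOXK2 and WDR45B lay under the same region.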
